A study of Mus musculus with 4 samples.

Results

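The genes described here are the receptors and core enzymes of sphingosine 1-phosphate (S1P), 8 genes of the 19057 named on the array: the 5 receptor genes S1pr1 to S1pr5, the 2 sphingosine kinase genes Sphk1 and Sphk2, and the S1P lyase gene Sgpl1. Their 17 probes were chosen by gene symbol in the platform annotation. The family itself was selected on its changes between ATRA and DMSO, which were known beforehand, so those changes, and whether a probe passed in the fit over all probes, are given below as a description and not as evidence. The cells were of E14, a mouse embryonic stem cell line, and were grown in serum and LIF, the cytokine that sustains self-renewal. They received the vehicle DMSO (2 arrays, titled wt) or all-trans retinoic acid (ATRA, 2 arrays) for 2 hours; the source name and series design call the DMSO arrays untreated, and no dose of ATRA is stated in the labels. Both groups are the same line, with no genetic change named in the labels.

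S1P is a lipid messenger made inside the cell when a sphingosine kinase phosphorylates sphingosine, the backbone freed from ceramide. It is broken down irreversibly by the lyase SGPL1 or returned to sphingosine by phosphatases, and once outside the cell it acts through G protein-coupled receptors. S1PR1 couples to Gi alone, whereas S1PR2 and S1PR3 also engage Gq and G12/13, and S1PR2 is known for restraining Rac and cell migration. ATRA is the ligand of the nuclear retinoic acid receptors, so transcripts that differ after so short an exposure bear on the study's question of how retinoic acid acts on these cells.

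The 4 arrays held 45281 probes each, and their deposited intensities had medians of 99.7 to 99.8. A probe was called detected when its detection p, the chance of such a signal from negative controls, was under 0.05. This corresponded to intensities above 104.4 to 106.3, depending on the array. Between 40.1% and 42.3% of probes were detected per array, and the 19112 detected on at least 2 arrays were kept. The labelled cell type was checked with 7 pluripotency genes, all 7 of which were detected on every array. Of these, Sox2 and Zfp42 fell with ATRA, by 0.39 and 0.40 on the log2 scale (limma adjusted p = 0.019 and 0.0041), and the other 5 did not pass. The summed intensity of the 7 was 42607 to 44561 with DMSO and 41932 to 42441 with ATRA, and its part in the results below was not tested. Cyp26a1, the retinoic acid hydroxylase gene, was 3.97-fold higher with ATRA (limma adjusted p = 2.6e-09). Rarb, a retinoic acid receptor gene, was detected on the ATRA arrays alone, at a log2 change of 0.54 (limma adjusted p = 0.19). Of 5 genes of endothelial cells, in which S1P receptors are well known, Pecam1 and Tek were detected on all arrays, Cdh5 on 1 DMSO array, and Tie1 and Kdr on none. The summed intensity of the 5 was 683.7 to 685.1 with DMSO and 680.0 to 688.2 with ATRA. Of 5 fibroblast genes 3 were detected on all arrays and 2 on none, and of 4 blood cell genes 1 and 3.

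S1pr2 was the receptor detected well above background, and it was higher with ATRA on both of its detected probes. On the brighter one (ILMN_2773936) the intensities were 781.7 and 750.4 with DMSO and 1190.1 and 1154.1 with ATRA. On the dimmer one (ILMN_2964522) they were 206.1 and 184.5 with DMSO and 264.2 and 262.0 with ATRA. On each probe both ATRA arrays lay above both DMSO arrays, with a gap wider than the spread within either group. After background correction, on the log2(intensity + 16) scale, the brighter probe went from 9.43 ± 0.046 to 10.10 ± 0.034 (mean ± SD, n = 2). That is a change of 0.67 (SE 0.084 from limma's fit), or 1.59-fold. The dimmer probe went from 6.87 ± 0.19 to 7.54 ± 0.012 (n = 2), a change of 0.66 (SE 0.11) or 1.58-fold. The changes on the 2 probes thus differed by 0.0062 at this offset. With an offset of 50 they were 0.64 on the brighter probe and 0.54 on the dimmer one. In such bulk RNA, more RNA per cell and more cells that express the gene cannot be told apart. As deposited, with the background left in, the ratios were 1.53 and 1.35, and the fitted log2 change of the dimmer probe was then 0.43.

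The third S1pr2 probe stayed at the detection limit, at 103.8 and 105.0 with DMSO and 104.9 and 104.0 with ATRA, and was detected on no array. The groups overlapped on it. The platform annotation ties it to a sequence record that the RefSeq table used here does not list for S1pr2, whereas the records of both detected probes are listed, as are those of 14 of the 17 probes in all.

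**Figure D1:**
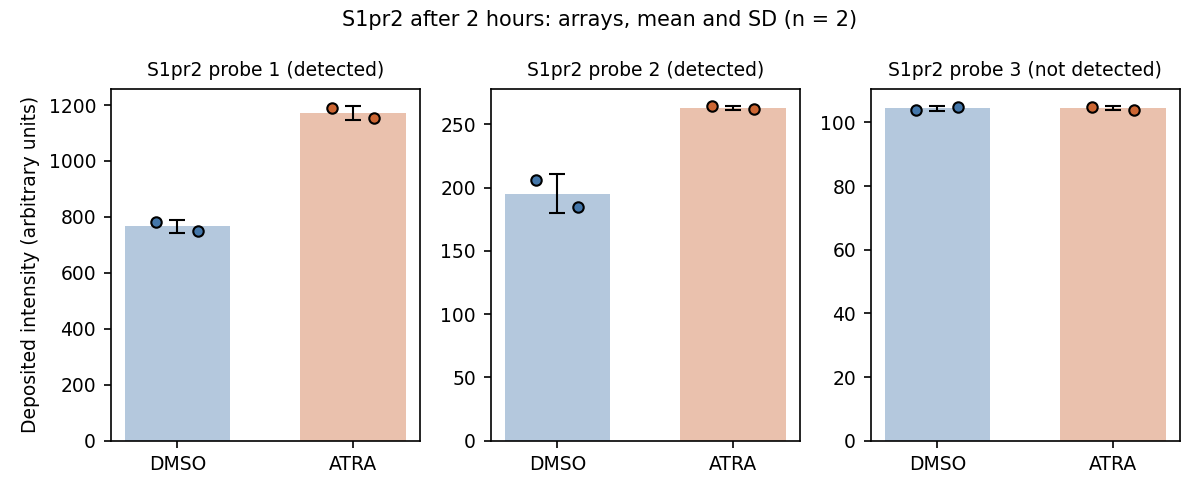
Deposited intensity (arbitrary units, linear axis from 0) of the 3 S1pr2 probes, with a panel and axis for each. Points are arrays, bars the mean and error bars the SD (n = 2); probe 1 stands at 766 with DMSO and 1172.1 with ATRA, probe 2 at 195.3 and 263.1, and probe 3 near 104 in both.

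The sequence before the start of S1pr2 is shown because it is the member with the largest differences between groups. Beside it stands that of S1pr5, the receptor gene that lies closest to it on chromosome 9. Those of Sphk2 and Sgpl1, the enzymes detected on all arrays, follow. Each is the 250 bases before a start annotated by RefSeq in GRCm38.p6, written 5′ to 3′ on the gene's strand. They are the minus strand of chr9:20976794-20977043 (S1pr2), chr9:21248444-21248693 (S1pr5), chr7:45718003-45718252 (Sphk2, the first of 2 starts) and chr10:61147685-61147934 (Sgpl1). Capitals mark the nuclear receptor core motif AGGTCA and the cAMP response element, spelled TGACGTCA, on either strand.
S1pr2: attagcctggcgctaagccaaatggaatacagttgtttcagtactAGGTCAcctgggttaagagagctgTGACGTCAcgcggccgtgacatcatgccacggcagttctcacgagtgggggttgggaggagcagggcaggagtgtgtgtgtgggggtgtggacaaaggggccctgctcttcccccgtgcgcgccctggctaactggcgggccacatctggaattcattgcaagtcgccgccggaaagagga
S1pr5: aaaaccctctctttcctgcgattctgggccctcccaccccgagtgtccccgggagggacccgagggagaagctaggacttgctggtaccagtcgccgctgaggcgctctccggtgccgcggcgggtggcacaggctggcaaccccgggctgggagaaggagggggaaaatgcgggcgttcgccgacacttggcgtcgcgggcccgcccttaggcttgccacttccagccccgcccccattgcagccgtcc
Sphk2: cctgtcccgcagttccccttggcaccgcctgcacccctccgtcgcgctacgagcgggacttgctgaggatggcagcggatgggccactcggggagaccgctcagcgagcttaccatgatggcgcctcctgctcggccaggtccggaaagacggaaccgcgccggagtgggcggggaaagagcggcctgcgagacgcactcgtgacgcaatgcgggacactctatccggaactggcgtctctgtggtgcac
Sgpl1: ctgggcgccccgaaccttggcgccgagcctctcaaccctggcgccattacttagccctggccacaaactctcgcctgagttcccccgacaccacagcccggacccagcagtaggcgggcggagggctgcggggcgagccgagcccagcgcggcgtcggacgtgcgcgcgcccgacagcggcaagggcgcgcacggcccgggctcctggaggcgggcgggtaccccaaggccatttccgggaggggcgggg

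In S1pr2 the core motif begins 205 bases and the cAMP response element 181 bases before the start, and they share no base. The motifs were picked after the sequences and the changes had been seen. Windows were available for 7 of the 8 genes (all but S1pr1), 12 in all, since Sphk1 has 5 annotated starts. The core motif was found in 3 of the 12, which are that of S1pr2 and 2 overlapping ones of Sphk1, and in 14.0% of all 32851 windows of this length. The cAMP response element was found in 1 of the 12, against 1.55% of all windows. Direct repeats of the core motif with spacers of 1, 2 or 5 bases (DR1, DR2 and DR5, the usual forms of retinoic acid response element, searched on both strands in a degenerate spelling) were found in 0 of the 12 and in 0.164%, 0.174% and 0.0883% of all windows. The CpG count was 14 in S1pr2, 9 in S1pr3, 0 in S1pr4, 22 in S1pr5 and 31 in Sgpl1. It was 27 and 20 in the 2 windows of Sphk2, and 4 to 19 in the 5 of Sphk1. Over all windows the median was 6, with quartiles of 2 and 16. A match here is a description of the letters in the window.

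The probes of the other 4 receptors read below or just above the detection limit in both groups. S1pr1, the receptor of lymphocyte egress and vascular maturation, had 1 probe, at 84.9 and 86.6 with DMSO and 85.5 and 86.0 with ATRA, and was detected on no array. Neither probe of S1pr3, a receptor of vascular and cardiac cells, was detected either: the first gave 92.4 and 95.6 with DMSO and 92.0 and 84.4 with ATRA, the second 87.1 and 91.5 with DMSO and 88.5 and 91.6 with ATRA. S1pr4, a receptor of lymphoid and myeloid cells, gave 99.2 and 99.2 with DMSO and 100.9 and 96.7 with ATRA. These values lie in the range of background, so they set no direction for the 3 genes.

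S1pr5, a receptor known from natural killer cells and oligodendrocytes, had 1 of its 2 probes detected on all 4 arrays, just above the limit. It read 106.7 and 107.3 with DMSO and 107.5 and 109.2 with ATRA. The ATRA arrays were the higher ones, by 1.33 intensity units on average, and the log2 change was 0.059 (SE 0.17). Its second probe was not detected and read 102.7 and 97.0 with DMSO and 95.1 and 95.9 with ATRA, in the opposite order. The 2 S1pr5 probes thus pointed in different directions, and both lay near the detection limit.

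Of the kinases, Sphk2, the isoform found in the nucleus and mitochondria as well as the cytoplasm, was detected on all arrays by 2 of its 3 probes. The brighter read 455.1 and 431.0 with DMSO and 431.0 and 395.8 with ATRA, a log2 change of -0.12 (SE 0.095). The other read 379.6 and 378.7 with DMSO and 339.3 and 386.4 with ATRA, a change of -0.085 (SE 0.10). The lower mean of the second rests on 1 ATRA array, and the groups did not lie apart on either probe. The third Sphk2 probe, 90.4 to 100.4 over the 4 arrays, was not detected.

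Sphk1, the growth factor-responsive kinase of the cytoplasm and plasma membrane, was near background. Its brightest probe read 104.0 and 109.3 with DMSO and 101.8 and 108.9 with ATRA, and was detected on replicate 2 of each group only. The difference within each group was larger than that between the group means, and the log2 change was -0.055 (SE 0.18). The other 2 Sphk1 probes were detected on no array. One read 101.5 and 96.4 with DMSO and 103.2 and 100.2 with ATRA. The other read 92.6 and 91.0 with DMSO and 95.8 and 94.8 with ATRA.

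Sgpl1, whose product cleaves S1P at the endoplasmic reticulum and so closes the pathway, was detected on all arrays by both probes. The brighter read 224.6 and 213.8 with DMSO and 216.5 and 228.1 with ATRA, a log2 change of 0.031 (SE 0.11). The other read 178.9 and 188.0 with DMSO and 177.8 and 201.6 with ATRA, a change of 0.076 (SE 0.12). DMSO and ATRA arrays overlapped on both.

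**Figure D2:**
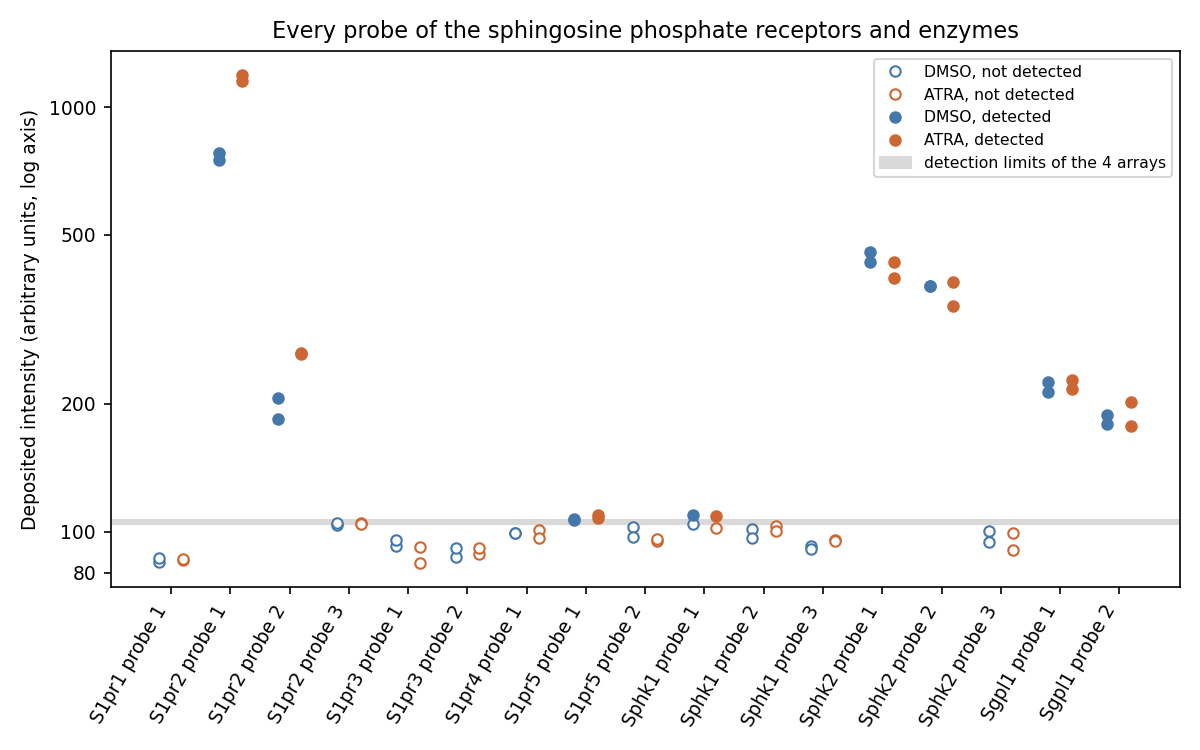
Deposited intensity (arbitrary units, log axis) of all 17 probes of the 8 genes on each array, with filled points where the probe was detected and the grey band at the detection limits of 104.4 to 106.3. ATRA stands well clear of DMSO on S1pr2 probes 1 and 2. On the detected S1pr5 probe, close to the limit, the ATRA arrays are higher by 1.33 intensity units on average. S1pr1, S1pr3 and S1pr4 have no filled point.

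Across the family, 8 of the 17 probes, from 5 of the 8 genes, were kept, and 9 were detected on no array. Among the kept probes the log2 changes ran from -0.12 to 0.67 with a median of 0.045, beside a median of -0.0069 over all kept probes. In the fit over all kept probes 2 of the 8 passed the threshold (limma, Benjamini-Hochberg adjusted p under 0.05), both for S1pr2 and both higher. Over all kept probes 1.58% passed, and 1.26% passed as higher. The 2 groups did not overlap on 3 of the 8 kept member probes (both S1pr2 probes and S1pr5), as on 40.8% of all kept probes. Nothing is read from these counts, because the family was picked with this contrast in view. The 5 kept probes of the enzymes had changes of -0.12 to 0.076, and 0 of them passed. In an alternative without the intensity trend in the variance model, the brighter S1pr2 probe passed and the dimmer one did not.

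**Figure D3:**
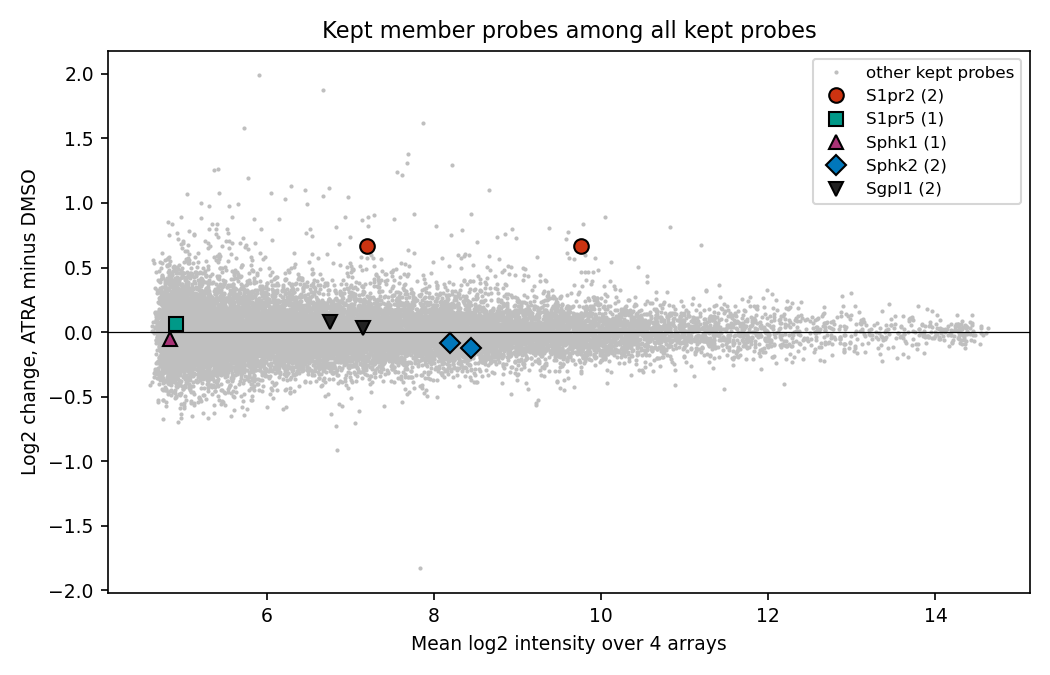
Log2 change (ATRA minus DMSO) against mean log2 intensity over the 4 arrays for the 19112 kept probes (grey) and the 8 kept member probes (symbols, with the number of probes per gene). The 2 S1pr2 probes lie at 0.67 and 0.66, and the other 6 between -0.12 and 0.076.

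The genes that surround the family in S1P metabolism and signalling were examined in 5 lists of 83 genes, of which 77 were named on the array and 54 were kept, each by its brightest kept probe. Of the 54, 2 rose and 0 fell, beside 1.46% of all 10194 kept genes that were higher and 0.363% that were lower. Counts at an unadjusted p under 0.05, given below for each list, stand beside 12.4% of all kept genes. Both risers are lipid phosphate phosphatases, membrane enzymes that dephosphorylate S1P and lysophosphatidic acid on the outer cell surface. Plpp3 read 399.5 and 374.9 with DMSO and 493.6 and 476.0 with ATRA, and rose 1.32-fold (log2 change 0.40, SE 0.093, limma adjusted p = 0.024). Plpp2 read 363.3 and 396.2 with DMSO and 469.7 and 477.1 with ATRA, and rose 1.31-fold (0.39, SE 0.095, limma adjusted p = 0.029). On both, the ATRA arrays lay above the DMSO arrays. The second kept probe of each gene differed, at 0.048 for Plpp3 (limma adjusted p = 0.96) and 0.016 for Plpp2 (0.98). The calls also depended on the arrays: neither gene passed without ATRA replicate 1 or without ATRA replicate 2, and Plpp2 did not pass without DMSO replicate 1. Neither passed without the intensity trend. Over all alternatives the adjusted p ran from 0.0025 to 0.37 for Plpp3 and from 7e-04 to 0.33 for Plpp2, with log2 changes of 0.32 to 0.45 and 0.31 to 0.47.

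In the list of S1P breakdown and transport these were 2 of 7 kept genes, and they were also the 2 with an unadjusted p under 0.05. The median change was 0.14. Over all kept genes it was -0.0043, which also stands beside the medians of the lists below. Plpp1, the third phosphatase of that family, was at -0.19 (limma adjusted p = 0.46). Spns2, the S1P exporter, and Sgpp2, an intracellular S1P phosphatase, were not kept, and Sgpp1 was at 0.18 (limma adjusted p = 0.73). Apom, the plasma carrier of S1P, was at 0.14 (limma adjusted p = 0.73).

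In the list of ceramide and sphingosine supply, 0 of 16 kept genes passed, with a median of -0.015; 3 had an unadjusted p under 0.05. The furthest from 0 was Smpd2, a neutral sphingomyelinase, at -0.35 (limma adjusted p = 0.21). It was followed by Sgms1, a sphingomyelin synthase, at -0.32 (limma adjusted p = 0.16). Asah1, the acid ceramidase that frees sphingosine, was at -0.053 (limma adjusted p = 0.87) and Sptlc1, a subunit of the enzyme that starts sphingolipid synthesis, at -0.0015 (1.0).

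Among the G proteins and effectors that S1P receptors use, 0 of 14 kept genes passed, 1 had an unadjusted p under 0.05 and the median was -0.098. Gna13, a subunit of the G12/13 class to which S1PR2 couples, was at -0.31 (limma adjusted p = 0.086), while its other kept probe was at 0.0015 (1.0). Gnai2 was at -0.050 (limma adjusted p = 0.89), and Gnaq at 0.21 (0.50) on its brightest probe and -0.10 (0.81) on its other one.

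Genes that the transcriptional regulators YAP and SRF are known to raise gave 0 calls among 13 kept, with 3 at an unadjusted p under 0.05 and a median of -0.051. Ccn1 was at -0.29 (limma adjusted p = 0.41) on its brightest probe and at 0.062 (0.95) on its other one. In the same order, Ankrd1 was at -0.26 (limma adjusted p = 0.38) and -0.062 (0.94). Ccn2 was at -0.051 (limma adjusted p = 0.89) and 0.0068 (0.99). Egr1, an immediate-early SRF target, was at 0.20 (limma adjusted p = 0.60), with 2 DMSO arrays that differed from each other (SD 0.39).

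The receptors of lysophosphatidic acid, listed for the likeness of their ligand to S1P, gave 0 calls by brightest probe among 4 kept genes. Of these, 2 had an unadjusted p under 0.05, and the median was -0.13. Lpar6 was at -0.34 (limma adjusted p = 0.13). Lpar4 was at -0.26 (limma adjusted p = 0.19) on its brightest probe and fell by 0.50 on its other one (SE 0.098, limma adjusted p = 0.0057). Lpar1 was at 0.0076 (limma adjusted p = 0.99) on its brightest probe and at 0.29 (0.40) on its other one. Lpar2 was at 0.12 (limma adjusted p = 0.83). Lpar5 and Enpp2, the gene of the enzyme that makes lysophosphatidic acid outside the cell, were not analysed here.

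**Figure D4:**
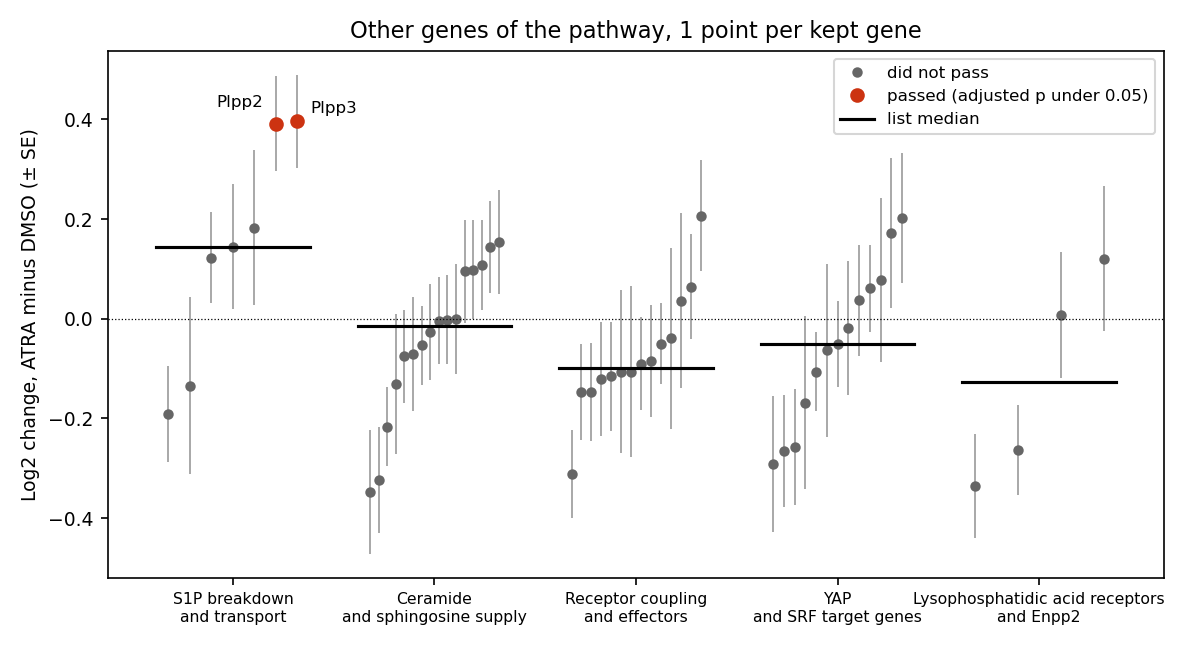
Log2 change (ATRA minus DMSO) with limma's SE for the 54 kept genes of the 5 surrounding lists, 1 point per gene by its brightest kept probe, with the list median as a bar. Plpp2 and Plpp3, at 0.39 and 0.40, are the points past the threshold, and the list medians lie between -0.13 and 0.14.

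By position, S1pr2 and S1pr5 lie on chromosome 9 with 11 protein-coding genes between them in the RefSeq order of GRCm38.p6. The 18 other protein-coding genes from 6 places before S1pr2 to 1 place after S1pr5 were examined, a set chosen after the changes had been seen, and 11 were kept. By brightest probe 1 of the 11 rose and 0 fell, beside 1.46% of all kept genes that were higher and 0.363% that were lower. The riser was Icam1, an adhesion molecule gene that binds leukocyte integrins and lies 2 places from S1pr2. It read 611.0 and 555.8 with DMSO and 963.7 and 956.6 with ATRA, and rose 1.75-fold (log2 change 0.81, SE 0.088, limma adjusted p = 3.5e-06). Over the 12 alternatives its log2 change ran from 0.72 to 0.88. Without the intensity trend its limma adjusted p was 0.028. These alternatives were not planned for this gene and all draw on the same 4 arrays, so they only describe it. Mrpl4, a mitochondrial ribosomal protein gene that lies between S1pr2 and Icam1, was at -0.0089 (limma adjusted p = 0.99). Dnmt1, the maintenance DNA methyltransferase gene on the other side, was at 0.19 (limma adjusted p = 0.60). The genes on either side of S1pr2 were therefore not past the threshold, while the second gene along was. Keap1, next to S1pr5, did not pass on its brightest probe, but another of its kept probes did (0.51, limma adjusted p = 0.013).

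**Figure D5:**
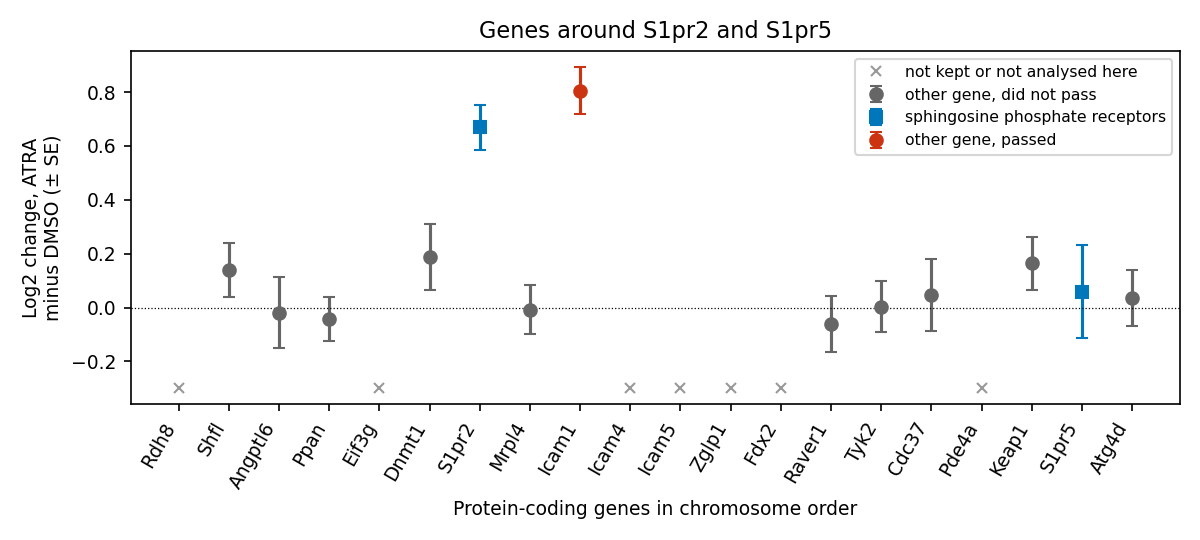
Log2 change (ATRA minus DMSO) with limma's SE for protein-coding genes around S1pr2 and S1pr5 in chromosome order, by brightest kept probe; crosses mark genes not kept or not analysed here and carry no value. S1pr2 at 0.67 and Icam1 at 0.81 stand apart from the other 11 points, which include S1pr5 at 0.059 and Dnmt1 at 0.19.

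The kept genes whose values over the 4 arrays were nearest to those of the brighter S1pr2 probe, by Euclidean distance of the log2 values, were Kit, Dock6 and Zfp979, at distances of 0.134, 0.248 and 0.273. Kit, the receptor tyrosine kinase of stem cell factor, read 829.4 and 788.6 with DMSO and 1175.2 and 1190.1 with ATRA, a log2 change of 0.60. Dock6, an exchange factor for Rac and Cdc42, and the zinc finger gene Zfp979 had changes of 0.47 and 0.46. The distance uses levels as well as changes, so it favours probes about as bright as that of S1pr2, and a gene with the same change on a brighter or dimmer probe would not be named. The likeness, over 4 arrays, is a description.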

How the data were processed

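Per the labels, RNA was extracted with TRIzol, and amplified with an Illumina kit; the arrays give 1 intensity a probe. GenomeStudio is the software named in the submitters' processing notes, without a version. For each probe and array the authors deposited a linear intensity and a detection p-value, as named in the file headers. Sorted intensities agreed between arrays to within 0.228, so the deposited values were already quantile normalized; a shift shared by most probes cannot be seen. The deposited series matrix holds the same intensity values minus 93.52.

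With limma 3.58.1 (R 4.3.3), neqc took the negative controls implied by the detection p-values for its background step, and values were put on log2 after an offset of 16 and quantile normalization. The contrast of ATRA and DMSO was fitted with lmFit and trended eBayes over 19112 probes detected (p under 0.05) on at least 2 of 4 arrays, with Benjamini-Hochberg adjustment at 0.05. Symbols came from the platform annotation (34885 probes with 1 symbol, 18 with several, 10378 unnamed here), of which 34807 matched a RefSeq table of GRCm38.p6 by Entrez identifier. In the lists, a gene stands for its brightest kept probe. Levels of different probes were used to rank the probes of a gene, in the summed marker intensities and in the distances behind the nearest profiles. They were not compared otherwise. Named genes were all members, list genes past the threshold (up to 4 a list), the furthest gene in each list that did not pass, further list genes added for their role after values were seen, and the 3 nearest profiles. The members and lists were chosen with earlier results of these data known. Simulated data were used to test the fit. Separate cultures are not mentioned for the 2 arrays of a group, so a p-value reflects the spread between arrays, which could be technical.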

Additional observations from a re-analysis of the deposited data

How the results depend on the processing

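The 12 alternatives changed the background correction, offset, deposited table, probe filter, variance model, replicate block or number of arrays. Over them the log2 change of the brighter S1pr2 probe ran from 0.61 to 0.70 and that of the dimmer one from 0.43 to 0.80; the family was selected on this contrast, so these ranges only describe it. Without the intensity trend 74 probes passed in place of 302, with 1 member probe and 0 genes of S1P breakdown and transport among them. Same-numbered arrays did not deviate together (r = -0.0028 across probes), so the numbers were not taken as pairs; with the replicate block 492 probes passed, and 1 gene of receptor coupling and effectors (Gna13). It changed no other call on the members or lists. When 1 array was left out, 133 to 956 probes passed: 133 or 147 when ATRA replicate 1 or 2 was dropped, 495 or 956 when DMSO replicate 1 or 2 was. The genes past the threshold then numbered 0 to 2 for S1P breakdown and transport, 0 to 2 for ceramide and sphingosine supply (Cers2 and Smpd2, without DMSO replicate 2), 0 to 1 for receptor coupling (Gna13, without DMSO replicate 2), 0 to 1 for YAP and SRF targets (Egr1, without DMSO replicate 1) and 0 to 1 for lysophosphatidic acid receptors (Lpar6, without DMSO replicate 1). Leaving out an array also turned the sign of changes that had not passed, such as Sgpl1 (-0.078 to 0.23 on its second probe). The causes were not tested. The kept probes of S1pr5 and Sphk1 read close to the detection limit and their other probes below it, so signal over background limits any statement about them.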

Other observations

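Keap1, the sensor of oxidative stress that lies next to S1pr5, had 4 kept probes that were all higher with ATRA, but with different sizes. Its brightest probe was at 0.16 on the log2 scale (SE 0.10, limma adjusted p = 0.57), the others at 0.29 (0.23), 0.37 (0.29) and 0.51 (0.013), with the adjusted p in parentheses. One of the 4 therefore passed the threshold.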
